A study of Sus scrofa with 8 samples.

Results

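The 7 troponin genes TNNT1, TNNT2, TNNT3, TNNI1, TNNI2, TNNC1 and TNNC2 were followed across embryonic stages and gated cell groups in single-cell RNA sequencing of pig somites and myotomes. They were chosen by name among the 21301 features of the count matrices. Of the 7 symbols, 6 were listed there, and TNNT3, which had no symbol in the matrices, was read by its Ensembl ID, ENSSSCG00000031903. All 7 genes passed the filter on low counts in each of the 7 comparisons tested. There were 8 libraries, 1 for each of 4 stages in each of 2 breeds, Tibetan (ZZ) and a Duroc by Tibetan cross (DZ), and every library was a pool of 5 embryos of 1 sow. Somites were taken on embryonic days 16, 18 and 21 (E16, E18 and E21) and on day 28 (E28) the myotome, from which skeletal muscle forms. The tissue therefore cannot be told apart from the stage at E28, and no stage of a breed had a second library, so that the spread between embryos was not measured.

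Troponin is the calcium switch of the thin filament in striated muscle. Troponin C binds calcium, troponin I holds back the interaction of actin with myosin, and troponin T anchors the complex to tropomyosin. Each subunit has several genes, named after the adult muscle that uses them: TNNT1, TNNI1 and TNNC1 are the slow skeletal genes, TNNT3, TNNI2 and TNNC2 the fast skeletal genes, TNNT2 and TNNI3 the cardiac genes, and TNNC1 also serves the heart. The embryo is known to use them more freely, with TNNT2 present in early skeletal muscle and TNNI1 in the early heart before TNNI3.

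On the Sscrofa11.1 assembly, as annotated by RefSeq, 5 of the 7 genes lie near another troponin gene on the same strand. TNNI2 (chr2:1251566-1253883, plus strand) and TNNT3 (chr2:1297826-1316865, plus strand) are 43942 bases apart, and TNNT2 (chr10:23749528-23759696, minus strand) and TNNI1 (chr10:23788279-23800554, minus strand) are 28582 bases apart. TNNT1 (chr6:59351445-59365584, minus strand) lies 1243 bases from TNNI3 (chr6:59366828-59377490, minus strand), the cardiac troponin I gene, which was not among the 7. TNNC1 (chr13:34591571-34594320) and TNNC2 (chr17:48025621-48026762), both on the minus strand, lie on chromosomes that hold none of the others, and the model of TNNC2 is partial. Promoters were read as the 250 bases before the start site shared by the largest number of annotated mRNAs, which was 5 of 16 for TNNT1 and 14 of 39 for TNNT3, and searched on both strands for the E-box CANNTG, the core that the MYOD1 family binds, for the MEF2 box, CTA and TAG with any 4 bases between them, and for the MCAT element, CATTCC or GGAATG. The E-box CAGCTG was counted both as itself and among the CANNTG matches. The promoters of TNNI2, TNNT3 and TNNT1 held the E-box CAGCTG and are shown 5′ to 3′ as RefSeq gives them, because these are skeletal genes whose levels the results turn on, with the E-boxes in capitals.

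TNNI2, chr2:1251316-1251565, plus strand: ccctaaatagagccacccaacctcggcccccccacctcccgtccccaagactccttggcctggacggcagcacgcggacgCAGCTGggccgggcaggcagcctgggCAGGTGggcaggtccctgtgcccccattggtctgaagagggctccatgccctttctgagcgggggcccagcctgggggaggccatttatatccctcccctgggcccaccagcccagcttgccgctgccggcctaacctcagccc

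TNNT3, chr2:1299112-1299361, plus strand: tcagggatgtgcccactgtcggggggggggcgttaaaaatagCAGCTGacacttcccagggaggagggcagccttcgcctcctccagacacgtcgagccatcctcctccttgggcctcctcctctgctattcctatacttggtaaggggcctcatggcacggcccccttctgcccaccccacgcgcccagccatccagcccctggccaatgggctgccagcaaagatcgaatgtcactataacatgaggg

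TNNT1, chr6:59365286-59365535, minus strand: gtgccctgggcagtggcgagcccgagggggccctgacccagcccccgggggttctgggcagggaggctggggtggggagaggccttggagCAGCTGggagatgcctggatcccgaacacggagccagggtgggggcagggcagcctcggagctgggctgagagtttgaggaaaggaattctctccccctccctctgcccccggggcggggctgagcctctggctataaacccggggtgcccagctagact

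CAGCTG stood 170 bases before the start site of TNNI2, 208 bases before that of TNNT3 and 160 bases before that of TNNT1. TNNI2 had a further E-box 144 bases before its start. Among 19531 promoters of this length, 61.9% held a CANNTG E-box and 13.9% held CAGCTG, so that an E-box in a promoter is common. TNNC1 held an MCAT element 69 bases before its start, which 10.1% of all promoters held somewhere, and TNNT2 and TNNC2 held none of these letters. The start site of TNNC2 is that of a partial model, and that of TNNT2 comes from 1 annotated mRNA. Whether these windows are the promoters was not checked, so that the lack of matches in them shows little. None of the promoters of these 6 genes (TNNI2, TNNT3, TNNT1, TNNC1, TNNT2 and TNNC2) held the MEF2 box in the letters searched, found in 2.28% of all. Other forms of the MEF2 site were not searched, so that their absence is not shown. The TNNT3 promoter holds ttaaaaatag directly before CAGCTG, which begins with TTA and was not covered by the search.

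The 74147 cells kept carried between 39852689 and 57568895 UMIs per library, with a median of 3405 to 6160.5 UMIs per cell. A UMI is a molecule of RNA counted at its 3′ end, so that levels were not divided by transcript length, and how well each 3′ end is captured was not measured. Levels are given as CPM, UMI counts scaled to a total of 1000000 UMIs, of the cells summed. Intervals given with shares of UMIs are exact Clopper-Pearson intervals at 95%, which cover counting error only. Of the 90688 barcodes deposited, 39.16% of those of E16-ZZ exceeded the mitochondrial limit, against 1.05% to 9.15% in the other 7 libraries, and 678 of 73464 distinct barcodes of cells kept occurred in more than 1 library.

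Cells were gated by marker UMIs, none of them of a troponin gene. The skeletal gate used MYOG, MYMK, CHRNA1, CHRND, CHRNG and MYBPC1, genes of differentiating muscle cells, and took 1660 cells. By stage, ZZ before DZ, these were 0 and 1 (E16), 45 and 78 (E18), 229 and 202 (E21), and 367 and 738 (E28). The cardiac gate used MYBPC3 and NKX2-5, the only symbols of its list in the files, and took 263 cells, 56 and 161 from the ZZ and DZ libraries at E16, 35 and 11 at E18, and none later. Libraries labelled somite thus held cells with cardiac markers at E16 and E18. The gates were checked with genes they did not use. Skeletal-gated cells of the 6 libraries from E18 carried MYH3, the embryonic myosin heavy chain, at 942 to 3113 CPM and GATA4, a heart transcription factor, at 0 to 0.616 CPM. Cardiac-gated cells carried MYL4, the atrial light chain that embryonic muscle also uses, at 7558 to 11980 CPM and GATA4 at 74.7 to 176 CPM. MYH3 and MYL4 are given here for a single gate each. ACTC1, the cardiac actin, was also on the list of checks and was not called between the gates (log2 fold change -0.40, edgeR, adjusted p = 0.488). Sums of at least 20 cells were tested, which left 6 skeletal and 3 cardiac sums.

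The cardiac-gated and skeletal-gated cells differed in 6 of the 7 troponin genes, all but TNNI1. In cardiac-gated cells TNNT2 was the highest of the 7 genes, at 14113 CPM in E16-ZZ, 12703 CPM in E16-DZ and 8983 CPM in E18-ZZ. In skeletal-gated cells TNNT2 ranged from 565 CPM in E28-ZZ to 1026 CPM in E18-DZ, with a median of 800 CPM over 6 sums. The groups did not overlap, and how many of all genes did so was not counted. TNNT2 was lower in skeletal-gated cells by a log2 fold change of -3.96 (95% interval -4.40 to -3.52, edgeR, adjusted p = 9.97e-08). TNNC1, the troponin C of slow muscle and heart, was at 5203, 6374 and 4459 CPM in the cardiac sums and at 1598 to 2934 CPM in the skeletal sums. TNNC1 was lower in skeletal-gated cells (log2 fold change -1.37, -1.88 to -0.85, edgeR, adjusted p = 0.00136).

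TNNT1, the slow skeletal troponin T, was the opposite case, at 7.98, 40.6 and 15.3 CPM in the cardiac sums and at 2881 to 6573 CPM in the skeletal sums (log2 fold change 7.36, 6.07 to 8.64, edgeR, adjusted p = 4.3e-06). The fast genes were also higher in skeletal-gated cells. TNNC2 differed by 5.90 (4.84 to 6.95) and TNNT3 by 4.83 (3.47 to 6.19) on the log2 scale (edgeR, adjusted p = 5.56e-06 and 0.000163). TNNI2, the fast troponin I, had 2869 UMIs in the skeletal sums and 1 UMI in the cardiac sums, a ratio of 444 per UMI sequenced with a counting interval of 79.6 to 17530 (edgeR, adjusted p = 0.000349). The cardiac level of TNNI2 therefore rests on a lone molecule, and that of TNNT3 on 7 UMIs, with 3, 2 and 2 in the cardiac sums. TNNT1 had 3, 43 and 4 UMIs and TNNC2 had 13, 18 and 3 UMIs there, so that the sizes of their folds depend on low counts too. TNNT3 was at 7.98, 1.89 and 7.66 CPM in these sums and at 2.87, 2.66 and 41.9 CPM in endothelial-gated cells of the same libraries. Its cardiac level thus cannot be told from that of endothelial-gated cells, and the size of its fold depends on it. Without E16-DZ the log2 fold change of TNNT3 was 4.02, that of TNNT1 8.55 and that of TNNI2 11.08, against 8.09 for TNNI2 in the main fit. All 3 were still called.

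TNNI1, the slow troponin I, was not called between the gates. It was at 2250, 2550 and 2149 CPM in the cardiac sums and at 1699 to 3856 CPM, median 3014, in the skeletal sums, and the cardiac values fell inside the skeletal range. The log2 fold change was 0.22 with an interval of -0.33 to 0.76 (edgeR, adjusted p = 0.582), and differences of up to 0.76 lie within that interval. Setting the gates against each other within the E18 libraries, with sums of at least 10 cells and the library as a block, gave 0.77 (edgeR, adjusted p = 3.61e-11), and TNNI1 was then called higher in skeletal-gated cells. That fit was chosen after seeing the data and rests on 4 sums, of which the cardiac sum of E18-DZ held 11 cells. With library and gate fitted, little spread between libraries was left, and the p-values of this fit do not measure it. The cardiac sums came from E16 and E18 and the skeletal sums from E18 to E28, so that gate and stage overlap only at E18. With the library as a block TNNT1, TNNT2, TNNT3, TNNI2 and TNNC2 kept their calls, as they did under the other 19 alternatives. Under the block the log2 fold changes were -3.22 for TNNT2, 3.08 for TNNT3 and 4.13 for TNNI2, which had 8.09 in the main fit. TNNI3, the adult cardiac troponin I, reached only 42.6, 18.9 and 11.5 CPM in the cardiac sums, where TNNI1 made up 98.1%, 99.2% and 99.5% of the troponin I UMIs. In skeletal-gated cells TNNI3 had 10 UMIs in 6 libraries and was lower (log2 fold change -4.73, -6.16 to -3.29, edgeR, adjusted p = 0.000279).

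In all, 4 of the 7 troponin genes were higher and 2 lower in skeletal-gated cells, where 13.3% of 8113 genes tested were called higher and 13.3% lower. The median log2 fold change was 4.83 over the 7 genes and 0.06 over all genes tested. At a mitochondrial limit of 5%, which left 5 skeletal sums and 1 cardiac sum, the 46 cells of E16-DZ, TNNC1 was no longer called (log2 fold change -1.18, edgeR, adjusted p = 0.103). The lone cardiac sum was there assumed to vary like the skeletal sums.

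**Figure D1:**
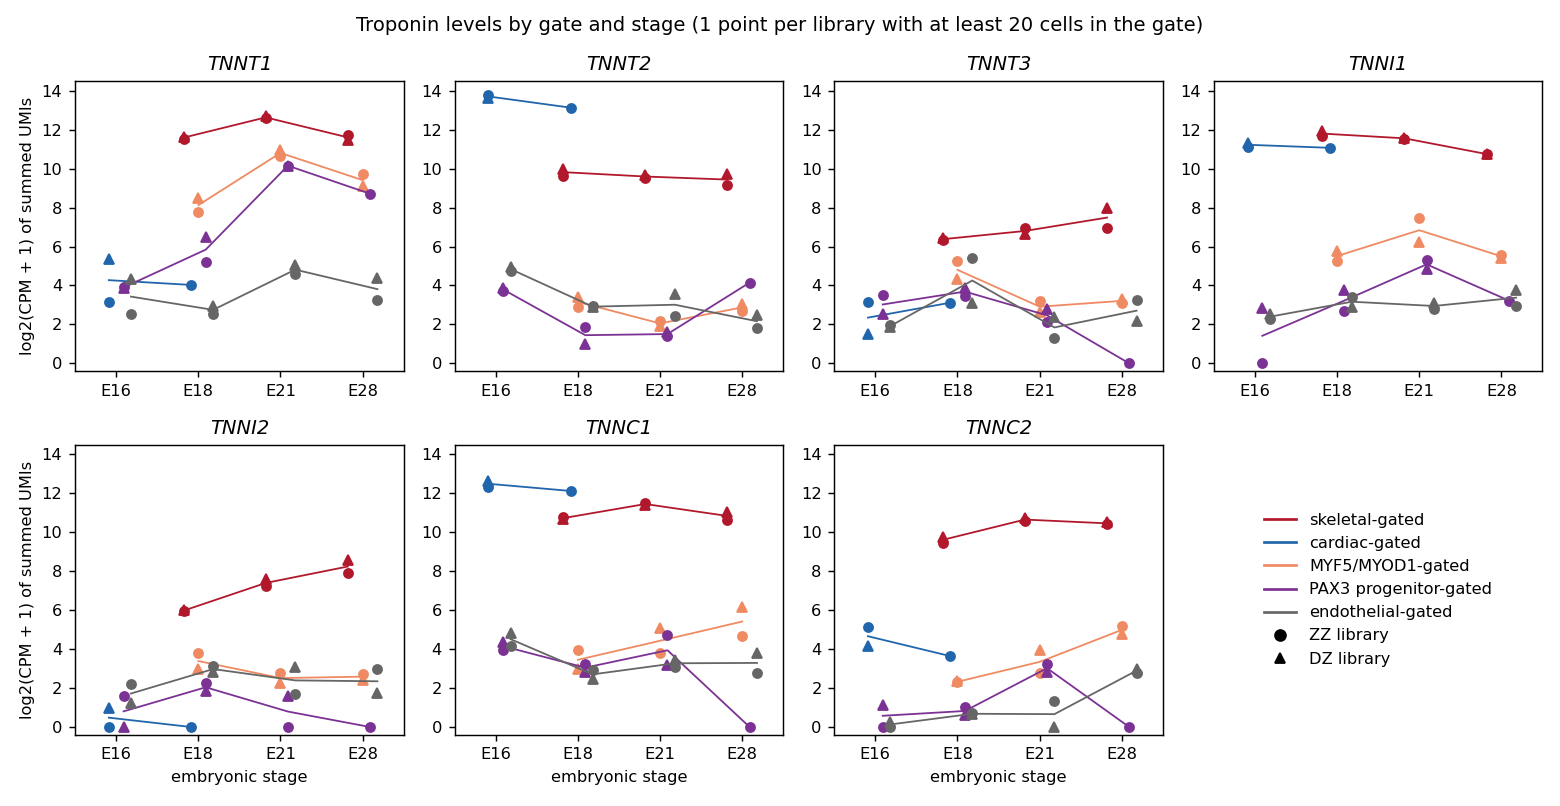
Levels of the 7 troponin genes by gate and stage. The vertical axes give log2(CPM + 1) of UMIs summed over the gated cells of a library, the horizontal axes the embryonic stage, circles ZZ and triangles DZ libraries with at least 20 cells in the gate, and lines join the means of a stage. TNNT2 and TNNC1 are highest in cardiac-gated cells, TNNT1 also stands high in MYF5/MYOD1-gated and PAX3 progenitor-gated cells at E21, and TNNI2 goes in skeletal-gated cells from 60.5 and 63.4 CPM at E18 to 239 and 382 CPM at E28.

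Skeletal-gated cells were next set against cells with at least 2 UMIs of MYF5 and MYOD1 together, the genes of muscle determination. These cells had at most 1 UMI of the skeletal and of the cardiac markers, so that they need not be free of skeletal markers. The MYF5/MYOD1 gate took 90 and 89 cells at E18, 316 and 311 at E21, then 661 and 1167 at E28. All 7 troponin genes were higher in the skeletal-gated cells of the same libraries, against 21.5% of 10030 genes called higher and 20.9% called lower, with a median log2 fold change of 5.59 over the 7 genes and -0.02 over all genes (edgeR with the library as a block). TNNT2, the cardiac troponin T, differed by 7.34 (6.99 to 7.69, edgeR, adjusted p = 3.08e-11), from 2.85 to 9.51 CPM in MYF5/MYOD1-gated cells. Endothelial-gated cells of the same libraries had TNNT2 at 2.55 to 10.8 CPM, so that the lower level cannot be told from background and the size of the fold depends on it. TNNC2 differed by 6.59 (5.97 to 7.20) and TNNC1 by 6.55 (5.87 to 7.22), and the troponin I genes TNNI1 and TNNI2 by 5.59 (5.09 to 6.09) and 5.58 (4.81 to 6.35). At E18 the lower level of TNNC2 rested on 3 UMIs in each library, and that of TNNC1 in E18-DZ on 5 UMIs. The latter was 6.79 CPM, against 4.61 CPM in endothelial-gated cells, so that the sizes of these 2 folds depend on low counts and background. The lower level of TNNI2, 3.80 to 13.1 CPM, overlapped the endothelial-gated 2.25 to 7.66 CPM of these libraries, so that its fold depends on background too. TNNT3 was at 37.9 CPM in MYF5/MYOD1-gated and 41.9 CPM in endothelial-gated cells of E18-ZZ, while TNNI1 lay above its endothelial-gated 5.99 to 12.8 CPM in all 6 libraries.

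TNNT1 differed least, by 2.70 (2.26 to 3.14, edgeR, adjusted p = 3.66e-07), which is 6.51-fold. In MYF5/MYOD1-gated cells from E18 on TNNT1 was the highest troponin gene. The differences between genes were not tested. TNNT1 was at 216 and 360 CPM there at E18, at 1632 and 1967 CPM at E21 and at 846 and 544 CPM at E28, in ZZ and DZ. Among the other troponins of these cells, TNNI1 was at 36.6 to 174 CPM, TNNC1 at 6.79 to 70.9 CPM and TNNT3 at up to 37.9 CPM. A further gate used PAX3, TCF15, MEOX1 and DMRT2, genes of the somite and its muscle progenitors. It took cells outside these gates with at least 3 UMIs from at least 2 of these genes, PAX3 always among them. In these PAX3 progenitor-gated cells TNNT1 was at 14.3 and 13.5 CPM at E16, 35.8 and 88.4 CPM at E18 and 1134 and 1140 CPM at E21, and at 418 CPM in the 22 cells of E28-ZZ. No other troponin gene exceeded 38.6 CPM in PAX3 progenitor-gated sums of at least 20 cells. Endothelial-gated cells, taken as the background because endothelium is not known for troponin, carried TNNT1 at 4.78 to 31.7 CPM in the 8 libraries, so that the levels at E21 in both gates lay above that background. Cells gated on the neuron genes ELAVL3, ELAVL4, STMN2, DCX and INA carried TNNT1 at 242 and 356 CPM at E16 and 9.90 and 5.48 CPM at E18. The PAX3 progenitor-gated levels at E16 and E18 thus lay below the neuron-gated levels of E16. Differences between stages were not tested in the MYF5/MYOD1 and PAX3 gates.

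Counted in cells, the order was the same. Each cell was thinned to 1500 UMIs, since deeper cells show more genes. A TNNT1 UMI was then found in 91.3% ± 5.76 (SD, n = 6 libraries) of skeletal-gated cells, in 55.1% ± 24.7 of MYF5/MYOD1-gated cells (n = 6), in 20.3% ± 20.1 of PAX3 progenitor-gated cells (n = 7) and in 1.80% ± 1.41 of endothelial-gated cells (n = 8). In neuron-gated cells the share was 10.4% ± 12.8 (n = 8) and reached 32.1% in a library. The stages were far apart in these gates. In MYF5/MYOD1-gated cells the share was 19.1% and 41.6% at E18, 80.1% and 85.2% at E21, then 55.9% and 49.1% at E28. Median depths before thinning were 4959 to 9218 UMIs in skeletal-gated and 5413 to 9662 UMIs in endothelial-gated cells.

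In skeletal-gated cells, TNNI1 was found in 71.4% ± 21.9 (SD, n = 6 libraries) of thinned cells, TNNC1 in 42.9% ± 17.9, TNNT2 in 37.2% ± 12.9, TNNC2 in 27.7% ± 7.16, TNNI2 in 13% ± 5.08 and TNNT3 in 8.91% ± 5.65. The endothelial-gated background of these 6 genes was 0.404% to 2.04%. TNNT3 was closest to it, at 4.91% of skeletal-gated and 3.13% of endothelial-gated cells in E28-ZZ, and the endothelial-gated share reached 5.03% in E18-ZZ, where 32 endothelial-gated cells had at least 3 TNNT3 UMIs, so that this share is not plain background. Without thinning the mean shares of TNNI2 and TNNT3 were 34.2% and 24.4%. In cardiac-gated cells TNNC1, TNNT2 and TNNI1 were found in 98.2% ± 1.11, 97.7% ± 2.998 and 95.3% ± 3.47 of thinned cells (n = 3).

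The fast genes were found in cells that also held the slow gene of the subunit. Of the thinned skeletal-gated cells with a TNNI2 UMI, all 4 in E18-ZZ and all 4 in E18-DZ also had TNNI1, as did 91.4% and 93.8% at E21, then 94.0% and 87.9% at E28, in ZZ and DZ. Of those with TNNC2, 92.3% and 96.6% also had TNNC1 at E18, 88.9% and 93.2% at E21, then 74.3% and 81.4% at E28. These shares depend also on the slow gene's own level and on the depth, and no test was made of them.

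**Figure D2:**
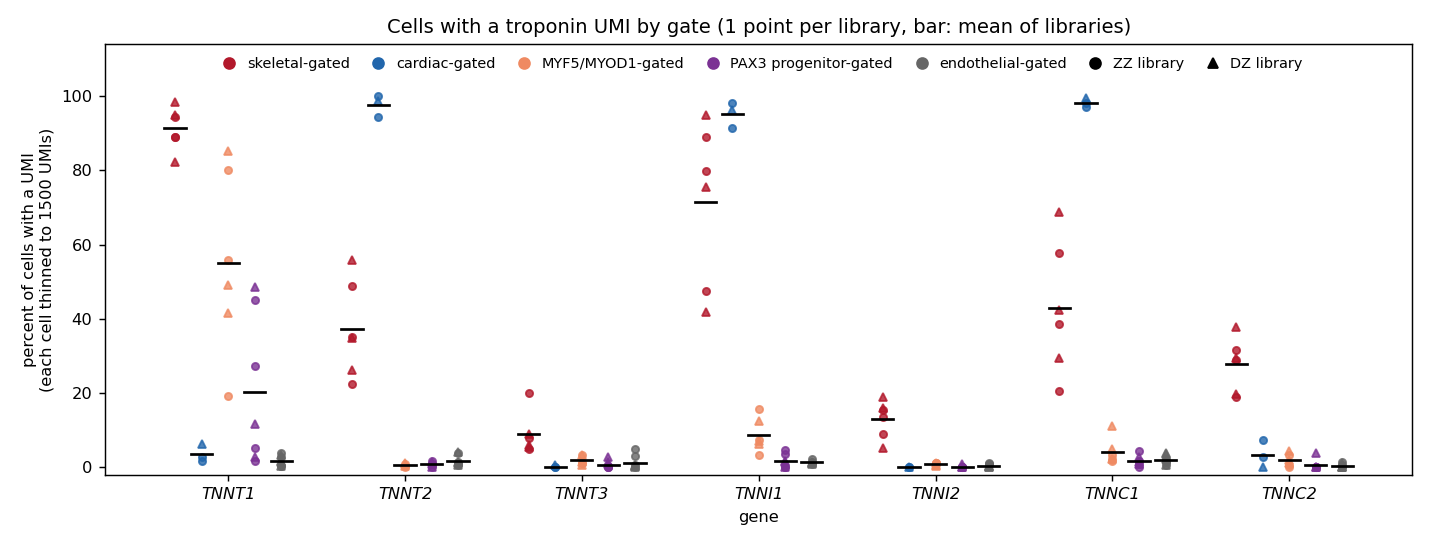
Share of gated cells with at least 1 UMI of each troponin gene, after thinning each cell to 1500 UMIs. The horizontal axis names the genes, the vertical axis gives the percent of cells, points are libraries with at least 20 cells in the gate (circles ZZ, triangles DZ) and bars their means. TNNT1 is the only one of the 7 genes found in many MYF5/MYOD1-gated cells, with a mean of 55.1%.

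Within skeletal-gated cells the 4 genes TNNI2, TNNT1, TNNC2 and TNNC1 rose from E18 to E21, among 4.97% of 9001 genes called higher, and none fell, among 3.56% called lower. TNNI2 rose most, from 60.5 and 63.4 CPM to 148 and 190 CPM, a log2 fold change of 1.63 (1.14 to 2.13, edgeR, adjusted p = 0.000521). TNNT1 was at 2975 and 3202 CPM at E18 and at 6133 and 6573 CPM at E21, and rose by 1.22 (0.81 to 1.63, adjusted p = 0.00102 by edgeR). TNNC2 went from 700 and 869 CPM to 1519 and 1705 CPM, also by 1.22 (0.83 to 1.61, adjusted p = 0.000664 by edgeR). In each of these genes the E21 libraries lay above both E18 libraries, and how many of all genes did so was not counted.

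TNNC1 rose less, from 1775 and 1614 CPM to 2934 and 2672 CPM (log2 fold change 0.90, 0.50 to 1.29, edgeR, adjusted p = 0.00711). TNNT2 was at 795 and 1026 CPM at E18 and 742 and 805 CPM at E21 (-0.05, -0.42 to 0.32), and TNNI1 at 3300 and 3856 CPM and then 2961 and 3067 CPM (-0.07, -0.44 to 0.31). Neither was called, and their intervals leave out changes of the size seen in TNNT1. TNNT3 was at 79.1 and 85.2 CPM and then 123 and 98.6 CPM (0.63, 0.02 to 1.25, edgeR, adjusted p = 0.216). The median log2 fold change was 0.90 over the 7 genes and 0.03 over all genes. The E18 sums held only 45 and 78 cells. Without E18-ZZ only TNNI2 was called, without E18-DZ none of the 7 was, and at a mitochondrial limit of 5%, which left 5 sums, only TNNI2 was. In these 3 refits the log2 fold changes of TNNT1, TNNC1 and TNNC2 lay between 0.73 and 1.27 and those of TNNI2 between 1.34 and 1.89. Leaving out single libraries moved TNNT3 between 0.20 and 1.09, and it was called only without E21-DZ (edgeR, adjusted p = 0.00117), which leaves 1 library at E21.

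From E21 to E28 the slow genes fell and TNNI2 rose further. TNNT1 was at 3373 and 2881 CPM at E28 and fell by 1.12 on the log2 scale (95% interval of the change -1.52 to -0.71, edgeR, adjusted p = 0.00453). TNNI1 was at 1699 and 1744 CPM at E28 and fell by 0.90 (change -1.27 to -0.52, adjusted p = 0.0102 by edgeR). TNNC1 was at 1598 and 2096 CPM and fell by 0.70 (change -1.09 to -0.31, adjusted p = 0.0467 by edgeR). All E28 values of these 3 genes lay below both E21 values, and the share of all genes that did so was not counted.

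TNNI2 was at 239 and 382 CPM at E28 and rose by 0.76 (0.38 to 1.14, edgeR, adjusted p = 0.0282), the only one of the 7 genes called higher at both steps. TNNT3, the fast troponin T, was at 125 CPM in E28-ZZ and 254 CPM in E28-DZ, with a log2 fold change of 0.62 (0.13 to 1.12) that did not pass (edgeR, adjusted p = 0.184). TNNC2 was at 1362 and 1454 CPM (-0.29, -0.66 to 0.09) and TNNT2 at 565 and 849 CPM (-0.25, -0.61 to 0.12), and neither was called. Of all 9001 genes, 1.17% were called higher and 2.69% lower, and the median log2 fold change was -0.29 over the 7 genes and -0.003 over all. The calls changed with single libraries and with the processing. Without E18-ZZ only TNNT1 was called, without E18-DZ or without E28-DZ none was, and without E28-ZZ TNNC1 was not (-0.52, edgeR, adjusted p = 0.404). Where calls were lost without E18-ZZ, E18-DZ or E28-DZ, the log2 fold changes of TNNT1, TNNI1 and TNNC1 lay between -1.11 and -0.70 and those of TNNI2 between 0.65 and 0.77. Leaving out single libraries moved TNNT3 between 0.09 and 1.12, and it was called without E21-ZZ (1.06, edgeR, adjusted p = 9.68e-05) or without E28-ZZ, and also with no filter on low counts (0.66, edgeR, adjusted p = 0.0214). DESeq2 called TNNT1 and TNNI1 only. TNNC1 also lost its call with no doublets removed (edgeR, adjusted p = 0.0554) and at a mitochondrial limit of 5% (0.139), and TNNI2 with no breed covariate (0.0937). The E18 libraries enter this step through the shared estimate of the spread.

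**Figure D3:**
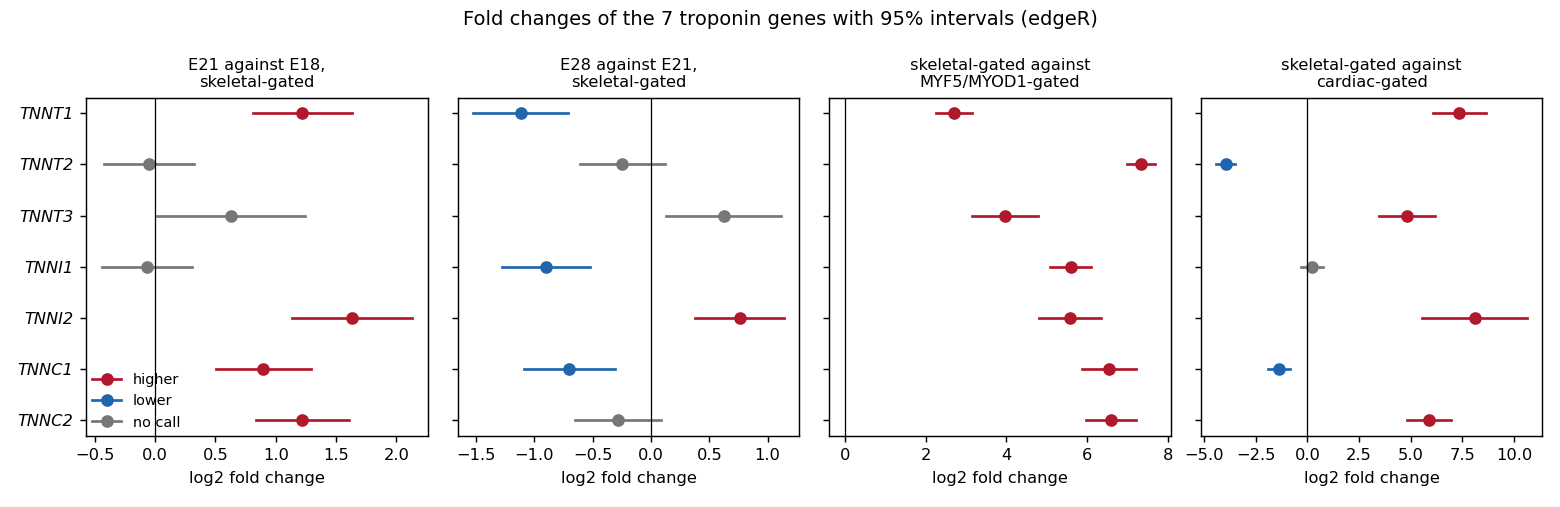
Log2 fold changes of the 7 troponin genes in 4 comparisons, with 95% intervals from edgeR. Points to the right of 0 are higher in the stage or gate named before "against", red and blue points passed an adjusted p of 0.05 and grey points did not. TNNI2 lies to the right of 0 in all 4 panels, and TNNI1 changes from no call at E21 against E18 to lower at E28 against E21.

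The share of skeletal-gated cells without MYH3 was higher at each later stage. MYH3, the embryonic myosin, was not used by the gate and was taken to divide its cells. More than 10 MYH3 UMIs, the median of gated cells with any, were carried by 31.1% and 26.9% of skeletal-gated cells at E18, 28.8% and 27.7% at E21, then 14.2% and 14.2% at E28, in ZZ and DZ. Cells without a MYH3 UMI made up 40.0% and 34.6% at E18, 55.9% and 51.5% at E21, then 64.9% and 68.6% at E28. Depth moves these shares, and the median UMIs of gated cells were 9218 and 6282 at E18, 5876 and 7385 at E21, then 5777 and 4959 at E28. With each cell thinned to 1500 UMIs, cells without MYH3 made up 55.6% and 49.4% at E18, 64.0% and 60.2% at E21, then 75.5% and 78.6% at E28, so that the order of the stages held. The share with many MYH3 UMIs did not keep its order, since more than 5 UMIs, the median of thinned cells with any, were carried by 8.89% and 7.79% of E18 cells, 22.8% and 19.4% of E21 cells and 11.4% of E28 cells in both breeds. The cells with more than 10 UMIs at full depth therefore need not be alike between E18 and the later stages. The part of this shift in the changes over all gated cells was not tested. The cells with more than 10 MYH3 UMIs were also fitted alone, an alternative chosen after seeing the data. These cells numbered 14 to 105 per library.

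Among cells with more than 10 MYH3 UMIs, TNNI2 was at 79.5 and 64.1 CPM at E18, 292 and 451 CPM at E21 and 981 and 1234 CPM at E28. TNNT3 was at 55.1 and 52.5 CPM, then 311 and 277 CPM, and then 557 and 912 CPM. TNNI2 and TNNT3 were thus higher at each step, in each breed, with no overlap between stages. Fitted alone, TNNT3 was higher by 2.71 at E21 against E18 and by 1.16 at E28 against E21 (edgeR, adjusted p = 1.11e-06 and 0.000796), and TNNI2 was called at both steps. The E18 values of TNNT3 rest on 9 UMIs in each library. The shares of all genes called in this fit, or without overlap between stages, are not given here, so that these calls have no background beside them. TNNT1 was at 4612 and 4705 CPM, 10891 and 11904 CPM and then 7485 and 6689 CPM, with the same rise and fall as in all gated cells, and was called lower at E28.

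TNNI1 and TNNC1, which fell over all gated cells at E28, were not called in these cells. TNNI1 was at 5455 and 5984 CPM at E21 and 5761 and 5166 CPM at E28 (log2 fold change -0.20, edgeR, adjusted p = 0.605), and TNNC1 at 7296 and 6941 CPM and then 7245 and 7169 CPM (-0.11, edgeR, adjusted p = 0.796). TNNC2 was at 3777 and 4636 CPM and then 6131 and 5173 CPM (0.31, edgeR, adjusted p = 0.406), against -0.29 in all gated cells. In gated cells without MYH3, in contrast, TNNI1 was at 1020 and 823 CPM at E21 and 293 and 278 CPM at E28, and TNNT1 was still at 1318 to 2839 CPM from E21 on.

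The other troponin genes were low where MYH3 was not found. TNNT2 was at 23.9 to 116 CPM, TNNC2 at 10.9 to 55.3 CPM and TNNC1 at 21.8 to 196 CPM in gated cells without MYH3 of the 6 libraries. With more than 10 MYH3 UMIs these genes were at 1621 to 2558 CPM, 1382 to 6131 CPM and 3248 to 7296 CPM. At E18, TNNT3 was not higher with more than 10 MYH3 UMIs, at 81.0 and 71.9 CPM without MYH3 and 55.1 and 52.5 CPM with more than 10, on 9 to 13 UMIs each. TNNI2 was at 54.0 and 55.3 CPM and then at 79.5 and 64.1 CPM, on 8 to 13 UMIs each, and no relation to MYH3 was tested. From E21, TNNT3 was at 2.81 to 7.06 CPM without MYH3 and 277 CPM or more in the cells with the most.

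**Figure D4:**
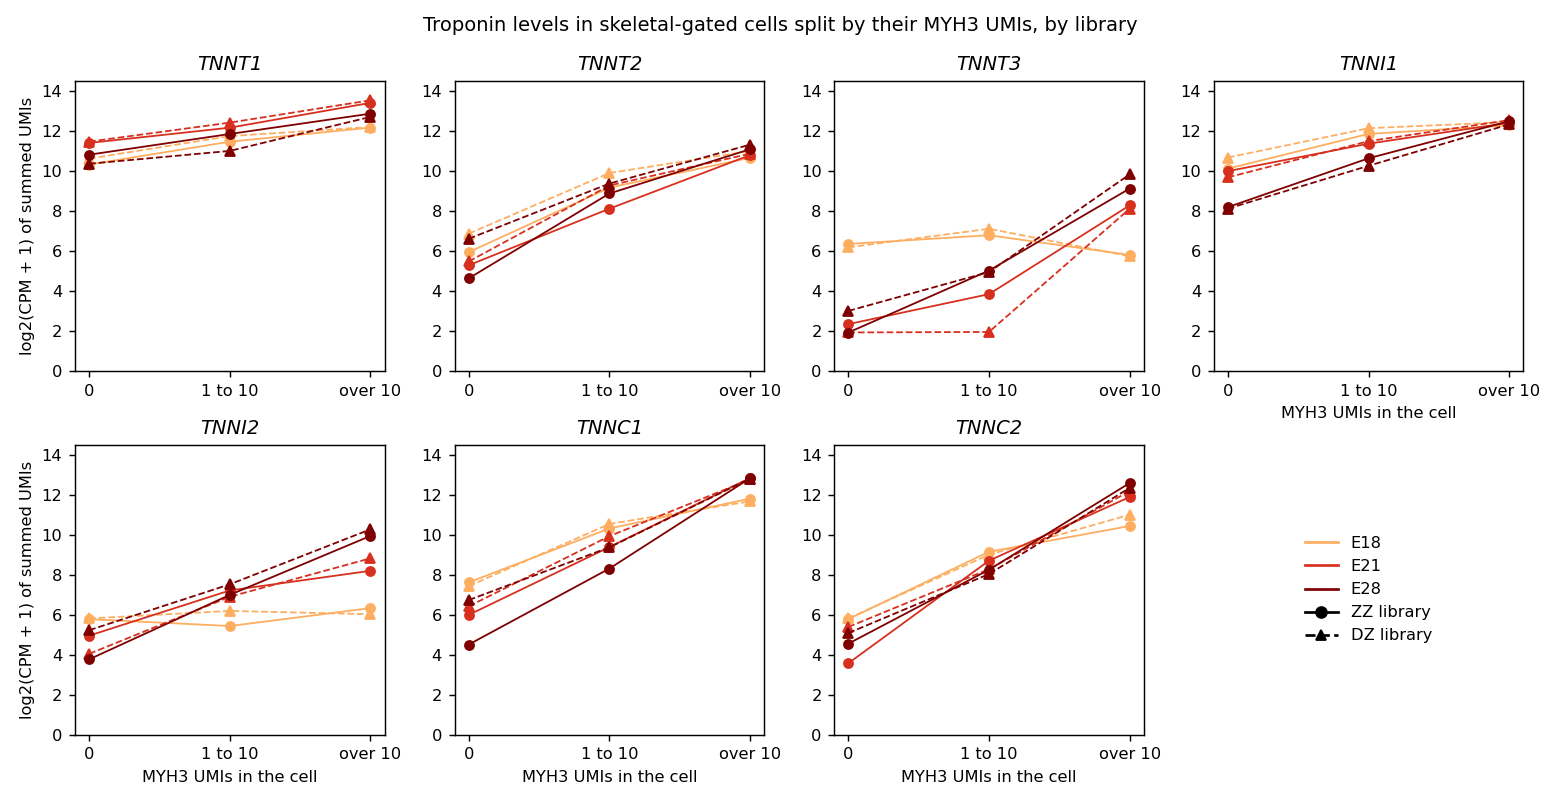
Troponin levels in skeletal-gated cells split by their MYH3 UMIs. The vertical axes give log2(CPM + 1) of the cells summed, the horizontal axes the MYH3 UMIs in a cell (0, 1 to 10, over 10), and each line is a library (colour for the stage, solid with circles for ZZ, dashed with triangles for DZ). TNNT3 and TNNI2 fan out by stage in cells with over 10 MYH3 UMIs, TNNI2 from 64.1 CPM to 1234 CPM, while TNNI1 meets at 4985 to 5984 CPM.

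As shares of a subunit, the changes in skeletal-gated cells were as follows. TNNI2 made up 1.80% (1.18 to 2.63) and 1.62% (1.11 to 2.27) of the troponin I UMIs at E18, 4.76% (4.17 to 5.40) and 5.83% (5.21 to 6.49) at E21, then 12.3% (11.4 to 13.3) and 18.0% (17.2 to 18.7) at E28, in ZZ and DZ. The mean share went from 1.71% ± 0.129 (SD, n = 2) to 5.29% ± 0.757 and 15.1% ± 3.99, and the stages did not overlap. Nearly all the rest was TNNI1. In cells with more than 10 MYH3 UMIs the share of TNNI2 was 1.57% and 1.13%, 5.09% and 7.01%, and 14.6% and 19.3%, in the same order of stages as in all gated cells.

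TNNC2 made up 28.3% and 35.01% of the troponin C UMIs at E18, 34.1% and 39.0% at E21, then 46.0% and 41.0% at E28. The means were 31.7% ± 4.75, 36.5% ± 3.42 and 43.5% ± 3.58 (SD, n = 2 each), and E18 and E21 overlapped. Troponin T was mostly TNNT1, at 77.3% and 74.2%, 87.6% and 87.9%, and 83.0% and 72.3%. TNNT2 took 20.7% and 23.8%, 10.6% and 10.8%, and 13.9% and 21.3%, and TNNT3 2.05% and 1.97%, 1.76% and 1.32%, and 3.08% and 6.38%. TNNT1 was thus the main isoform in all 6 libraries, and the share of TNNT3 was highest in E28-DZ. The shares of stages were not tested. In cardiac-gated cells TNNT2 made up 99.7% to 99.9% of troponin T and TNNC1 99.3% to 99.7% of troponin C.

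**Figure D5:**
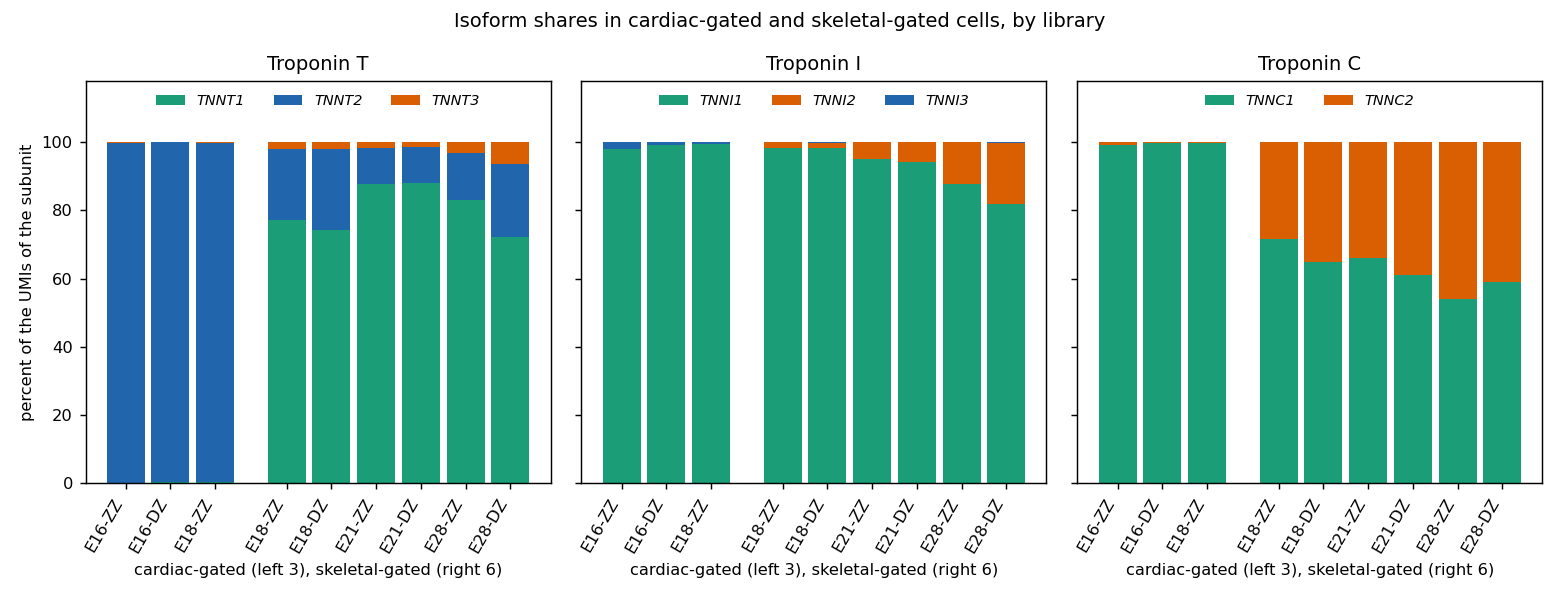
Shares of the isoforms of troponin T, troponin I and troponin C. Each bar is the gated cells of a library, the left 3 cardiac-gated and the right 6 skeletal-gated, and the vertical axis gives the percent of the UMIs of the subunit. TNNI2 grows from 1.80% and 1.62% of troponin I at E18 to 12.3% and 18.0% at E28, and TNNT2 fills the troponin T bars of cardiac-gated cells.

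Over whole libraries, the 4 late libraries (E21 and E28) were set against the 4 early ones (E16 and E18). Of the 7 genes, 3 were higher and none lower, while 16.7% of 14683 genes tested were called higher and 17.7% lower. The median log2 fold change was 1.30 over the 7 genes and 0.02 over all genes. TNNC2 was at 0.452 and 0.609 CPM at E16, 7.90 and 9.92 CPM at E18, 59.1 and 67.2 CPM at E21 and 92.4 and 183 CPM at E28, and differed by 4.24 (2.01 to 6.48, edgeR, adjusted p = 0.0137). TNNT1 was at 24.7 to 57.9 CPM in the early and 345 to 468 CPM in the late libraries (3.12, 2.79 to 3.45, edgeR, adjusted p = 0.000322). TNNI1 was at 30.0 to 63.2 CPM and 116 to 216 CPM (1.30, 0.87 to 1.73, edgeR, adjusted p = 0.00331). The early and late values of these 3 genes did not overlap, a pattern that was not counted over all genes. Both E16 libraries were counted with another version of Cell Ranger than the rest, and without the E16 libraries TNNT1, TNNI1 and TNNC2 were still called higher, by 3.06, 1.21 and 3.36. TNNC2 was 5.21 without E18-ZZ and 5.03 without E18-DZ, and at a mitochondrial limit of 5% TNNC2 was 5.63 and TNNI1 2.15, all of them called.

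TNNT2 had a lower mean in the late libraries but was not called. It was at 180 and 312 CPM at E16, 74.1 and 38.1 CPM at E18, 29.3 and 32.0 CPM at E21 and 36.1 and 102 CPM at E28 (log2 fold change -1.93, -3.50 to -0.36, edgeR, adjusted p = 0.0596). TNNI2 was at 2.24 to 6.50 CPM and 7.24 to 48.4 CPM (1.74, 0.22 to 3.27, adjusted p = 0.0736 by edgeR). TNNC1 was at 32.9 to 175 CPM and 108 to 272 CPM (0.60, -0.56 to 1.76) and TNNT3 at 3.44 to 18.4 CPM and 6.64 to 37.1 CPM (0.86, -0.78 to 2.49). DESeq2 also called TNNT2 lower and TNNI2 higher, with adjusted p = 0.0321 and 0.00779. Leaving out E18-DZ, TNNT2 was called (edgeR, -2.33, adjusted p = 0.0119), and leaving out E21-ZZ, TNNI2 was (edgeR, 2.19, adjusted p = 0.0355), as it was with no breed covariate (edgeR, 1.82, adjusted p = 0.038). At a mitochondrial limit of 5%, TNNC1 (1.44) and TNNT3 (1.52) were called higher (edgeR, adjusted p = 0.0232 and 0.0415). With single libraries left out, TNNT2 ran from -2.37 to -1.21 and TNNI2 from 0.94 to 2.19, and over all alternatives they reached -0.397 and 0.615. Leaving out single libraries moved TNNC1 between 0.27 and 1.26 and TNNT3 between 0.04 and 1.57, with no call for TNNC1 or TNNT3. Without both E28 libraries TNNC2 was not called (3.64, edgeR, adjusted p = 0.0688).

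A whole library sums every cell, so that more cells of a kind and more RNA in each cannot be told apart by its CPM. Skeletal-gated cells made up 0 to 0.83% of the early and 2.19% to 6.74% of the late libraries, and cardiac-gated cells 0.117% to 1.69% of the early and none of the late. In E16-ZZ, 5306 of 7173 TNNT2 UMIs, and in E16-DZ, 13440 of 17945, lay in cardiac-gated cells. By shares of a subunit, TNNT1 went from 27.7% ± 20.1 (SD, n = 4) of troponin T in the early to 86.8% ± 6.88 in the late libraries, TNNT2 from 66.1% ± 23.7 to 9.86% ± 4.79 and TNNC2 from 9.36% ± 11.03 to 39.5% ± 5.22 of troponin C (exact two-sided permutation test over 70 splits, p = 0.0286 each, the smallest these groups allow, adjusted over 4 tests 0.0381). TNNI2 was 9.57% ± 5.69 and 10.8% ± 6.01 of troponin I (exact permutation p = 0.8, adjusted 0.8), unlike its course within skeletal-gated cells.

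No troponin gene was called different between DZ and ZZ by edgeR. In whole libraries, with the stage as a block, the comparison called 0% of 15119 genes higher and 0% lower, while 918 genes had an unadjusted p under 0.05 and DESeq2 called 57. TNNT1 had a log2 fold change of 0.61 (0.30 to 0.92, edgeR, adjusted p = 0.711), was higher in DZ at all 4 stages, and was among the 57 genes of DESeq2 (adjusted p = 0.0144). TNNI1 (0.52, 0.13 to 0.91) and TNNC2 (0.48, 0.19 to 0.78) were also higher in DZ at all 4 stages and were not called (edgeR, adjusted p = 0.792 for both). The other 4 genes lay between -0.15 and 0.44. In skeletal-gated cells 0.1% of 9001 genes were called higher in DZ and 0.0111% lower, and none of the 7 was among them. TNNI2 had the largest value there, 0.52 (0.17 to 0.87, edgeR, adjusted p = 0.475), and TNNI2, TNNT2, TNNI1 and TNNC2 were higher in DZ at all 3 stages. How many of all genes were higher in DZ at every stage was not counted, in whole libraries or in skeletal-gated cells. TNNT2 had 0.41 (0.11 to 0.71), TNNT3 0.41 (-0.04 to 0.85) and TNNT1 0.05 (-0.29 to 0.38) on the log2 scale. The intervals of TNNI2 and TNNT3 reach the size of the step from E21 to E28.

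The other thin filament genes were taken as a list of 21, TNNI3 among them, of which 19 were in the files. From MYF5/MYOD1-gated to skeletal-gated cells 12 of 16 tested were higher and 1 lower, against 21.5% and 20.9% of all genes, led by ACTA1, the skeletal actin (7.57), and KLHL40, which stabilizes thin filament proteins (7.01), while TPM4, a tropomyosin of non-muscle cells, was lower (-0.70). At E21 against E18, 3 of 15 were higher, LMOD2, an actin filament leiomodin (2.12), ACTC1, the cardiac actin (1.66), and CFL2, muscle cofilin (0.77), and 2 lower, TPM1, a tropomyosin (-0.74), and ACTA1 (-0.73), against 4.97% and 3.56% of all genes. At E28 against E21 none of 15 was higher and 5 were lower, NEBL, the nebulin of heart (-1.61), KLHL41, a partner of nebulin (-1.07), the tropomyosins TPM3 (-0.71) and TPM2 (-0.68), and ACTA1 (-0.77), against 1.17% and 2.69% of all genes. The list's medians were 0.40 and -0.68 at these steps, against 0.90 and -0.29 for the troponins.

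Against cardiac-gated cells, 6 of 17 thin filament genes were higher and 7 lower in skeletal-gated cells, against 13.3% of all genes in each direction. NEB, nebulin, had 11099 UMIs in the skeletal and 0 in the cardiac sums, which gives a lower 95% limit of 465-fold from the counts (exact, counting error only), and KLHL40 was higher by 6.38 on the log2 scale. ACTG2, a smooth muscle actin, had 6 UMIs against 176 and was lower (-8.09), and so were NEBL (-4.21) and TPM1 (-1.96), while TPM3 was higher (1.94). In whole libraries 5 of 18 were higher late, with NEB (3.32) and KLHL40 (2.54) first, and ACTC1 (2.11) and ACTA1 (0.88) among them, and 3 were lower, with NEBL (-1.96) and TPM3 (-0.77) first. Of all genes 16.7% were called higher and 17.7% lower late, so that 3 of 18 lower is about the share of all genes. All these are log2 fold changes from edgeR that passed an adjusted p of 0.05.

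Over 46 sums of gate by library, which share libraries, the troponin genes fell into different company. By Pearson's r of log2(CPM + 1) among 10736 genes, TNNT2 was most like GYG1 (r = 0.934), MYL4 (0.933) and TCAP (0.932), and TNNC1 like CSRP3 (0.947), MYOM1 (0.943) and MYL4 (0.932). TNNC2 was most like MYH3 (0.957), MYL1 (0.952) and MYMK (0.938). TNNI2 and TNNT3 had the same 3 genes nearest, MYOG, STAC3 and PRR32, with r of 0.891 to 0.896 for TNNI2 and 0.812 to 0.817 for TNNT3. MYOG and MYMK helped to define the skeletal gate. TNNT1 was most like SHISA2 (0.896), RALGPS2 (0.884) and NEB (0.882), and TNNI1 like a gene without a symbol, ENSSSCG00000036052 (0.970), ALPK2 (0.954) and SYNPO2L (0.945). Among the troponin genes themselves, TNNT2 and TNNC1 were most alike (0.914), followed by TNNI1 and TNNC1 (0.883) and TNNT3 and TNNI2 (0.877), both on chromosome 2, and TNNT1 and TNNT2 least (0.222). TNNT2 and TNNI1, both on chromosome 10, had an r of 0.806.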

How the data were processed

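Single-cell 3′ RNA sequencing was available for 8 libraries, 1 for each stage and breed. The deposited UMI counts were made by the authors with Cell Ranger, per the file headers in version 3.1.0 at E16 and 3.0.2 at the later stages, on Sscrofa11.1 with Ensembl annotation, and were not normalized. Which reads of overlapping or near-identical genes were dropped is not given in the sources used here.

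Barcodes with at least 200 genes, at most 30000 UMIs and at most 10% of UMIs in 13 mitochondrial genes were kept, and the highest Scrublet scores of each library (scanpy 1.11.5) were removed as doublets at a rate of 0.8% per 1000 barcodes. Skeletal and cardiac gates needed at least 3 UMIs from at least 2 genes of the list and at most 1 UMI of the other list. The MYF5/MYOD1 gate needed at least 2 UMIs and at most 1 UMI of the skeletal and of the cardiac list. With the same limits, the PAX3 progenitor, endothelial and neuron gates needed at least 3 UMIs from at least 2 genes, PAX3 among them for the first. The endothelial list was PECAM1, CDH5, KDR, EGFL7, PLVAP, CLDN5, ESAM and TIE1, as far as the files held these symbols. MYL7, MYH6 and NPPA, also meant for the cardiac gate, were not used here, and the row named MYH7 in the matrices carries the name MYH6 in the gene name table. UMIs were summed per library and gate. They were tested with edgeR 4.0.16 (quasi-likelihood test, TMM, filterByExpr, Benjamini-Hochberg adjustment over all genes tested, threshold 0.05) in R 4.3.3, with the breed as a covariate for stages, the stage as a block for breeds, and the library as a block against the MYF5/MYOD1 gate. DESeq2 1.42.0, other limits, other gates and leaving out libraries were tried as alternatives. In counts simulated with 200 changed genes, the share recovered ran from 88.0% for E21 against E18 in the skeletal gate (8759 genes) to 100% for late against early whole libraries (14562 genes). The changed genes were not of low level, and their fold exceeded every stage change called for a troponin gene over all skeletal-gated cells. It did not exceed that of every gene called, as LMOD2 had 2.12 on the log2 scale at E21 against E18. All genes had the same spread, with no other differences between libraries. These shares therefore do not give the power for the smaller changes reported.

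The genes named were the 7 troponin genes, the list of 21 thin filament genes by counts with those of the largest change in each direction, and for each troponin gene the 3 genes nearest in Pearson's r. CFL2, KLHL41, TPM2, TPM4, LMOD2, ACTG2 and other genes named outside this rule were chosen after their values were seen. The members, lists and tests were chosen with earlier results of these data known. Nothing in the labels gives separate replicates of a stage and breed. The p-values and intervals rest on the spread between libraries left after the factors fitted, which edgeR estimates with information shared over all genes. They do not measure the spread between replicates of a stage and breed. The promoter of 1 of the 7 genes is not reported here.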

Additional observations from a re-analysis of the deposited data

Results flagged for a closer look

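In the late whole libraries, TNNT2 at 102.23 CPM, TNNI1 at 215.89 CPM and TNNC1 at 272.2 CPM in E28-DZ stood apart from the other 3 libraries by Dixon's test at the 95% level. Of 14 such tests run, chance gives about 1 in 20. Skeletal-gated cells made up 6.736% of the cells of E28-DZ and 3.714% or less of each of the other libraries.

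The whole-library level of TNNI2 differed between breeds in opposite directions. DZ minus ZZ was -4.255 CPM at E16 and -0.6804 CPM at E18, and 1.972 CPM at E21 and 31.1 CPM at E28. With 1 library for each stage and breed the difference between stages was not tested.

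Among barcodes left out for mitochondrial UMIs, 62 of 3993 in E16-ZZ (1.55%) passed the cardiac gate, against 56 cells (1.03%) of those kept. They carried TNNT2 at 13750 CPM, TNNI1 at 1690 CPM and TNNC1 at 3891 CPM.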

How the results depend on the processing

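For single troponin genes in the 7 comparisons, 800 results under an alternative kept direction and side of the threshold, 31 lost the call, 15 gained it and 22 changed sign. Where no cause is shown by the alternative itself, the cause was not tested. All 7 genes were called in skeletal-gated against MYF5/MYOD1-gated cells under every alternative run. Of the 3 genes called in late against early libraries, DESeq2 gave 5, with TNNT2 and TNNI2 added, and a mitochondrial limit of 5% gave 5, with TNNC1 and TNNT3 added, and leaving out a library gave 3 to 4. Without the E28 libraries TNNT3 had -0.247 in place of 0.86. Of 4 genes at E21 against E18, a limit of 5% left 1, and leaving out a library gave 0 to 5. Of 4 genes at E28 against E21, DESeq2 called 2, and leaving out a library gave 0 to 5, while over all genes DESeq2 called 103 and edgeR 347. Between breeds in whole libraries, edgeR called 0 troponin genes and DESeq2 1. Against the cardiac gate, the library as a block at 20 cells was not run, since no residual degrees of freedom were left.

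Among these single genes, signs changed only for values that had not been called. Between breeds in whole libraries TNNT3 was 0.147 at a limit of 5% and 0.148 with no stage block, and without single libraries ran from -0.573 to 0.243, as TNNI2 did from -0.406 to 0.555. At E21 against E18 TNNT2 was 0.003 at a limit of 5% and ran from -0.127 to 0.031 without single libraries. In cells with over 10 MYH3 UMIs TNNT2 was 0.245 and TNNI1 0.359 at that step, and TNNT2 0.243 and TNNC2 0.313 at E28 against E21. Between breeds in skeletal-gated cells TNNT1 was -0.045 at a limit of 5%, and without single libraries TNNT1 ran from -0.097 to 0.196, TNNT3 from -0.059 to 0.762 and TNNC1 from -0.042 to 0.207.

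In skeletal-gated cells at E21 the mean share of TNNT1 was 87.47% with a gate of 5 UMIs and 88.01% with no doublets removed, that of TNNT2 11.02% and 10.38%, and that of TNNT3 at E18 was 1.942% with a gate of 5 UMIs. Late minus early, without single libraries, the share of TNNT1 ran from 53.84 to 68.45 percentage points, TNNT2 from -66.11 to -49.58, TNNC2 from 27.09 to 34.7 and TNNI2 from -1.298 to 3.695, and TNNI2 was also -0.8752 without E16-DZ. With 4 against 3 libraries the exact permutation test cannot go below 0.0571, so that the calls of TNNT1, TNNT2 and TNNC2 could not be kept in any of these refits. Without thinning, the mean shares of skeletal-gated cells with a UMI were 98.93% for TNNT1, 52.96% for TNNT2, 24.35% for TNNT3, 34.17% for TNNI2 and 42.27% for TNNC2, and at 3000 UMIs 97.13% for TNNT1 and 19.34% for TNNI2. The mean share of skeletal-gated cells without MYH3 was 37.31%, 53.7% and 66.7% at E18, E21 and E28 without thinning and 44.45%, 58.35% and 70.99% at 3000 UMIs, a measure added after seeing the data. Depth limits TNNT3 and TNNI2 most, at 34 and 43 UMIs and at 26 and 32 UMIs in the E18 skeletal sums.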

Other observations

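TNNT1 was also found in cells outside the muscle gates at E16. In E16-ZZ, 104 cells outside the skeletal and MYF5/MYOD1 gates had at least 3 TNNT1 UMIs and held 464 of the 985 TNNT1 UMIs of the library (47.1%), and in E16-DZ 329 such cells held 1751 of 3101 (56.5%). From E18 on, skeletal-gated cells held 49.6% to 64.9% of the TNNT1 UMIs. SIX3, a transcription factor of the anterior brain and eye field, was at 69.6 CPM in the E16-ZZ cells with TNNT1 and 0.795 CPM in cells without, and at 145.7 and 1.84 CPM in E16-DZ. EPCAM and CLDN7, genes of epithelia, and FZD5, a WNT receptor, were among the leading genes in both libraries, as were PAX6 in E16-ZZ and OTX2 in E16-DZ. These cells were chosen after seeing the values and were not tested.

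In E18-ZZ, 80 cells outside the muscle gates had at least 3 TNNT3 UMIs and held 448 of 1058 (42.3%), of which 32 cells were endothelial-gated. MGP, a matrix protein, was at 756 CPM in them and 13.9 CPM in cells without TNNT3, and WT1, a transcription factor of mesothelium and kidney, at 556 and 30.4 CPM. In E18-DZ 11 such cells held 46 of 425 TNNT3 UMIs. The endothelial-gated level of TNNT3 was 41.9 CPM in E18-ZZ and 7.49 CPM in E18-DZ. This difference rests on 1 library.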
